A study of Mus musculus with 39 samples.

Results

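The 14 FANS libraries of nuclear RNA-seq in batches 2 and 3 were examined along the off-gene read share. They are 14 of the 31 RNA-seq libraries in the deposited tables, 7 from each batch. The share is the percentage of reads counted in no gene feature. Its denominator holds the reads on genes, in no feature and on more than 1 gene, and leaves out multiply aligned reads. In FANS, fluorescent nuclei are sorted by flow cytometry, and in INTACT the same kind of nuclei are pulled out with antibody-coated magnetic beads. For every gene with a mean normalised read count of at least 5, the log2(value + 1) was related to the share within each batch, which gave a slope in log2 units per percentage point of share. The genes described were selected on these slopes, as the genes whose slopes had the same sign and an unadjusted limma p under 0.05 in both batches. There were 270 such genes among 14340 genes measured in both batches, 161 with positive slopes (1.12%) and 109 with negative slopes (0.76%), and 24421 genes are listed in the tables. Because the slopes chose the genes, they are given as a description and not as a test.

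All libraries came from sfGFP+ nuclei of the neocortex of male and female mice aged 13 to 16 weeks. The animals carried Arc creERT2 (TG/WT), in which the Arc promoter drives a tamoxifen-dependent Cre, and the reporter R26 CAG-Sun1-sfGFP-Myc on a single allele (M/WT) or on both (M/M). They received tamoxifen and went through a social interaction test, so that Sun1-sfGFP marked the nuclear membrane of cells in which Arc had been active. Groups differed in the isolation technique and in the batch, and both techniques shared the genotype, tamoxifen and behaviour. Each library was made from 10000 nuclei with a ribosomal RNA depletion kit, 1.23 ng of RNA and 13 PCR cycles. The batches were different biological sources with different RNA integrity, the first batch having the highest, and the integrity of single libraries was not analysed here. Libraries of a batch may share animals, so p-values measure the spread between these libraries, which may be technical. The labels list 1 further FANS library (replicate 3) and 1 further INTACT library (replicate 5) in batch 2, which were not analysed here.

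A nucleus holds RNA at all stages between transcription and export. Newly made transcripts still carry introns, whose reads fall outside exons, whereas spliced mRNA is exported and is found in the cytoplasm, at the rough endoplasmic reticulum and around the nuclear envelope. Some long non-coding RNAs are kept at or near the site where they were transcribed. In bulk libraries, fewer cells of a type and less RNA per cell cannot be told apart.

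In batch 2, the off-gene share of the FANS libraries ranged from 81.9% to 84.0% (82.5% ± 0.754, SD, n = 7), with replicate 6 at the top and replicate 1 next to it at 82.9%. In batch 3 it ranged from 82.6% to 87.5% (84.4% ± 1.72, SD, n = 7), with replicate 7 at the top and replicate 6 next at 85.9%. One library in each batch therefore lay well above the others. The FANS libraries held between 4205665 and 7292908 reads on genes. Within a batch, the correlation of the share with the reads on genes was r = -0.309 in batch 2 and -0.396 in batch 3 (two-sided exact permutation p = 0.502 and 0.378, n = 7 each), and Spearman's rho was -0.107 and -0.464 (exact permutation p = 0.840 and 0.302). The percentage of multiply aligned reads was lower in libraries with more off-gene reads, with r = -0.506 in batch 2 (exact permutation p = 0.233, adjusted p = 0.4659, rho = -0.607 with adjusted p = 0.333) and -0.848 in batch 3 (exact permutation p = 0.0179, adjusted p = 0.0476, rho = -0.750 with adjusted p = 0.177), adjusted over 8 relations. Without the 2 libraries farthest from the median share, r was 0.392 and -0.600 (n = 5, exact permutation p = 0.5 and 0.367), so the relation changed sign in batch 2 and kept it in batch 3, without a small p. The share of reads that fell on more than 1 gene was 0.168% to 0.200% in batch 2 and 0.128% to 0.190% in batch 3, lowest at the highest off-gene share in each batch, and has the same denominator as the off-gene share.

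Most genes in both groups were protein coding, and the genes with positive slopes held a larger share of non-coding RNAs and of transcripts inside introns than all genes measured, while those with negative slopes were mostly shorter and richer in GC; these differences were not tested. Exonic sequence of 4 of the named genes, chosen after their values were seen, is shown to make the difference in composition visible. Each line is 100 bases in the direction of transcription, 5′ to 3′, from GRCm38.p6 (mm10), with G and C in capitals. The 5031426D15Rik bases are from the middle of its exon (chr2:6925662-6925761, minus strand, 42 G or C), the 9530091C08Rik bases from the middle of its exon (chr9:68769284-68769383, plus strand, 45 G or C), the Slc22a17 bases from its longest coding exon (chr14:54907165-54907264, minus strand, 59 G or C) and the Grina bases from its longest coding exon (chr15:76247976-76248075, plus strand, 64 G or C).
5031426D15Rik: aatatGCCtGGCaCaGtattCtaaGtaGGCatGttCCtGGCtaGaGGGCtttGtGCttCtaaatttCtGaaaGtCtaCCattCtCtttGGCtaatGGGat
9530091C08Rik: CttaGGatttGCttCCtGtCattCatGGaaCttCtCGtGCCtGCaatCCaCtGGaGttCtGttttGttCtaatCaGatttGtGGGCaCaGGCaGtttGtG
Slc22a17: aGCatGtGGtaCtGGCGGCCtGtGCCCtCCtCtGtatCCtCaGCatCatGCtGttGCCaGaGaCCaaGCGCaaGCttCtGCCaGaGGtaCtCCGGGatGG
Grina: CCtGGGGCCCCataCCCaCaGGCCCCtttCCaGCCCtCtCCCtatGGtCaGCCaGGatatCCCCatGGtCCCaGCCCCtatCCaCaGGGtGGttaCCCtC

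Over all exons, GC content was 40.3% for 5031426D15Rik, 44.5% for 9530091C08Rik, 62.1% for Slc22a17 and 58.5% for Grina. The first pair are single-exon non-coding RNAs that lie inside an intron of Celf2 and of Rora. Slc22a17, a receptor for lipocalin 2, and Grina, a membrane protein of the glutamate receptor associated family, are spliced mRNAs with 10 and 7 exons. These 4 genes differ more in GC content than the groups do, whose medians were 45.3% (positive slopes) and 53.9% (negative slopes). Id2, a named gene with negative slopes, had 42.4%.

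Among all genes, the slope in batch 2 had an adjusted p under 0.05 (limma, Benjamini-Hochberg over all genes) for 1 gene with a positive slope (0.00671%) and for 0 genes with a negative slope (0%). An unadjusted p under 0.05 was found for 964 of 14898 genes (6.47%). While edgeR and DESeq2 on whole reads each called 1 gene, 0 were called with quantile normalization, depth as a covariate or the rank of the share. The count was also 0 with a mean of at least 50, with no filter, and without FANS replicate 1, 6, 7 or 8. In batch 3, 254 genes with positive slopes (1.76%) and 293 with negative slopes (2.03%) passed the adjusted threshold among 14434 genes, and 2657 had an unadjusted p under 0.05 (18.4%). Slopes had the same sign in both batches for 8583 genes (59.9%), of which 4272 were positive and 4311 negative, and across genes, which are not independent replicates, the slopes of the batches had r = 0.186. There were 14 genes with an unadjusted p under 0.05 in both batches and slopes of opposite sign. The positive slopes of the 161 genes had a median of 0.144 in batch 2 (0.0806 to 0.709) and 0.0896 in batch 3 (0.0372 to 0.335). The negative slopes of the 109 genes had a median of -0.207 in batch 2 (-0.771 to -0.105) and -0.118 in batch 3 (-0.551 to -0.0609).

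**Figure D1:**
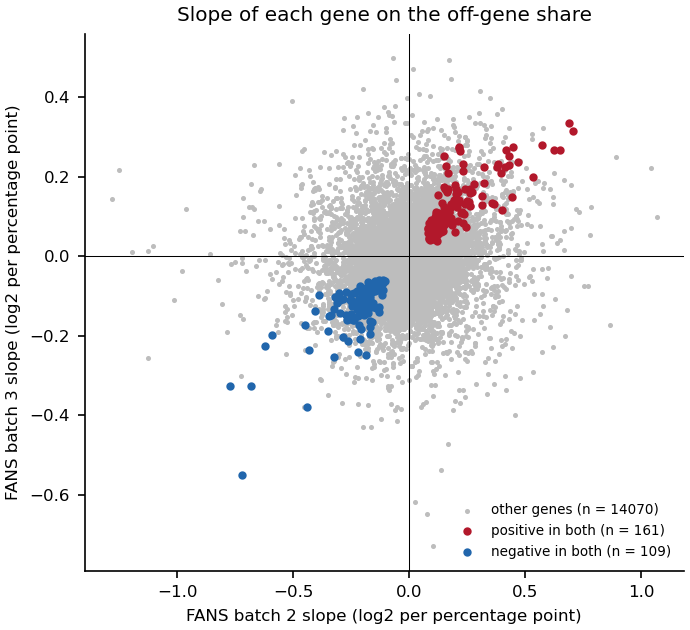
Slope of each gene on the off-gene read share in the FANS libraries of batch 2 (x axis) and batch 3 (y axis), both in log2(value + 1) per percentage point. Grey points are the other genes measured in both batches, red points the 161 genes selected with positive slopes and blue points the 109 selected with negative slopes, which lie in opposite corners because the selection used both axes.

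The selection depended on the library with the highest share in each batch, and more so in batch 2 than in batch 3. Without FANS replicate 6 of batch 2, 22 genes with positive and 25 with negative slopes met the rule, of which 6 and 11 were among the 161 and 109, and the share of genes with slopes of the same sign was 52.4%. Without FANS replicate 7 of batch 3 the counts were 81 and 68, of which 73 and 49 were among the original genes, and calls in batch 3 at an adjusted p under 0.05 were 23 in place of 547. Without FANS replicate 2 of batch 2, one of the libraries with the lowest share, the counts were 194 and 254.

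Kcnq1ot1, an imprinted antisense non-coding RNA known for silencing neighbouring genes, had the largest weaker t statistic among the genes with positive slopes. Its FANS values had a lowest, median and highest of 13550, 14740 and 20710 normalised reads in batch 2 and of 11780, 14260 and 21450 in batch 3. The highest value was that of the library with the highest share in each batch, and in batch 2 the other 6 libraries did not exceed 15810. Its slope was 0.26 ± 0.040 (SE) in batch 2 and 0.16 ± 0.026 in batch 3. The gene is 1 exon of 83.4 kb on chromosome 7 (143213111 to 143296547, minus strand) within Kcnq1, which is transcribed from the other strand, and whether the authors' counting used strand is not given in the sources used here, so reads of the 2 genes may not be separable.

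Ube3a, a ubiquitin ligase that is imprinted in neurons, had a similar pattern. Its lowest, median and highest values were 3460, 3872 and 4772 in batch 2 and 3269, 3859 and 5696 in batch 3, again with the highest value in the library of the highest share. Its slope was 0.16 ± 0.046 in batch 2 and 0.16 ± 0.018 in batch 3. Ube3a overlaps Snhg14 on the other strand, a host RNA of small nucleolar RNAs whose own slopes were 0.08 in batch 2 and 0.09 in batch 3.

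A group of single-exon transcripts lay inside introns. 5031426D15Rik (chromosome 2, 6922702 to 6928722, inside an intron of Celf2) had a lowest, median and highest value of 2200, 2439 and 2871 in batch 2 and of 1920, 2109 and 3340 in batch 3. 9530091C08Rik (chromosome 9, 68765346 to 68773322, inside an intron of Rora) had 957, 1092 and 1297 in batch 2 and 921, 1157 and 2080 in batch 3. 8430431K14Rik (chromosome 19, inside an intron of Prkg1) had 105, 125 and 235 in batch 2, and Gm16523, a transcribed pseudogene inside an intron of Scai, had 277, 297 and 381. In each of these 4 genes the highest value of batch 2 belonged to replicate 6, which stood above the other FANS libraries of that batch.

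Of the 161 genes with positive slopes, 17 lay inside an intron of a gene on the same strand (10.6% of those with curated exons), against 300 of 14285 genes measured in both batches (2.1%), and none of the 109 genes with negative slopes did. Over all 300, slopes were positive in both batches for 121 and negative in both for 73, with medians of 0.0501 in batch 2 and 0.0292 in batch 3. Their median slope in the INTACT libraries was -0.0147 in batch 2 and 0.117 in batch 3. Of the 17, 15 had 1 exon. The 16 host genes were themselves measured, and Macf1 and Fbxl17 were themselves among the genes with positive slopes. Over the 17 pairs of inner gene and host, in which Cox16 is the host of 2 genes, the median slope of the host, which the rule did not require to be positive, was 0.0135 in batch 2 and 0.0325 in batch 3. Celf2, a splicing regulator, had slopes of 0.02 and 0.04, and Rora, a nuclear receptor, 0.05 and 0.04. Reads of an unspliced host transcript can fall on such an inner gene, so RNA of the inner gene and of the host's intron cannot be told apart in these values.

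Antisense and other non-coding transcripts formed a second group. Among the genes with positive slopes, 30 were not protein coding (18.8%, against 8.5% of all genes measured), and 50 overlapped a gene on the other strand (31.2%, against 21.3%). Among the genes with negative slopes, 1 was non-coding (Snhg12) and 16 overlapped a gene on the other strand (14.8%). Sorbs2os, Nrg3os, Pcsk2os2, Bcas3os1 and Pitpnm2os1 were among the positive genes. Over all 518 non-coding genes that overlap a gene on the other strand, the median slope was 0.0655 in batch 2 and 0.0583 in batch 3, against 0.00165 and -0.00185 over all genes with curated exons. Both slopes were positive for 264 of these 518 genes and both negative for 75.

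Protein-coding genes of various lengths were also among the positive genes. Nbea, a scaffold protein of membrane trafficking with 58 exons over 558 kb, had a lowest, median and highest of 5367, 5693 and 6632 normalised reads in batch 2 and of 4839, 5188 and 6049 in batch 3. Prkdc, the catalytic subunit of DNA-dependent protein kinase with 86 exons, had 1228, 1341 and 1684 in batch 2 and 872.5, 1000 and 1290 in batch 3, with slopes of 0.18 and 0.08. Polq, a DNA polymerase of end joining, had slopes of 0.20 and 0.16, and Thada 0.16 and 0.08. Morc2b, an ATPase of the MORC family, and Lrtm1, which lies across from Cacna2d3 on the other strand, have 3 exons each, with slopes of 0.24 and 0.13 for Morc2b and of 0.16 and 0.16 for Lrtm1. The library with the highest share held the highest value of each of these 6 genes in both batches. Other protein-coding members were Macf1, Dmd, Ryr2, Ryr3, Ttn, Apc, Mycbp2, Akap9, Vps13a, Vps13b and Vps13c, which were chosen for mention after their values were seen.

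Among the genes with negative slopes, Grina had a lowest, median and highest of 746.1, 971.4 and 1025 normalised reads in batch 2 and of 478.2, 596.5 and 696.4 in batch 3. The lowest value was that of the library with the highest share in each batch, and in batch 2 the other 6 libraries were at 905.7 or above. Its slope was -0.20 ± 0.044 in batch 2 and -0.09 ± 0.025 in batch 3. Tmsb4x, which encodes the actin-sequestering thymosin beta 4, had 285.1, 367.5 and 410.6 in batch 2 and 227.4, 293.7 and 415.8 in batch 3, with slopes of -0.22 ± 0.060 and -0.17 ± 0.035. Slc22a17 had 1334, 1528 and 1699 in batch 2 and 930.1, 1141 and 1316 in batch 3, with slopes of -0.13 ± 0.044 and -0.07 ± 0.022.

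In these 3 genes the lowest FANS value belonged to the library with the highest share in both batches. The same was true of Wdr24, a subunit of the GATOR2 complex (slopes -0.24 and -0.12), of Agpat1, an enzyme of phosphatidic acid synthesis (-0.19 and -0.12), and of Tmem59l (-0.17 and -0.11), Tmub2 (-0.25 and -0.12) and Pianp (-0.21 and -0.10). Without FANS replicate 6, the slope of Tmem59l in batch 2 was 0.0283, of the opposite sign. Sepw1, a small selenoprotein, Id2, an inhibitor of basic helix-loop-helix factors, Arf5, a GTPase of vesicle transport, and Snhg12, a host RNA of small nucleolar RNAs, had slopes of -0.27, -0.29, -0.35 and -0.27 in batch 2 and of -0.16, -0.11, -0.19 and -0.15 in batch 3. For these 4 genes another library was lowest in one of the batches.

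**Figure D2:**
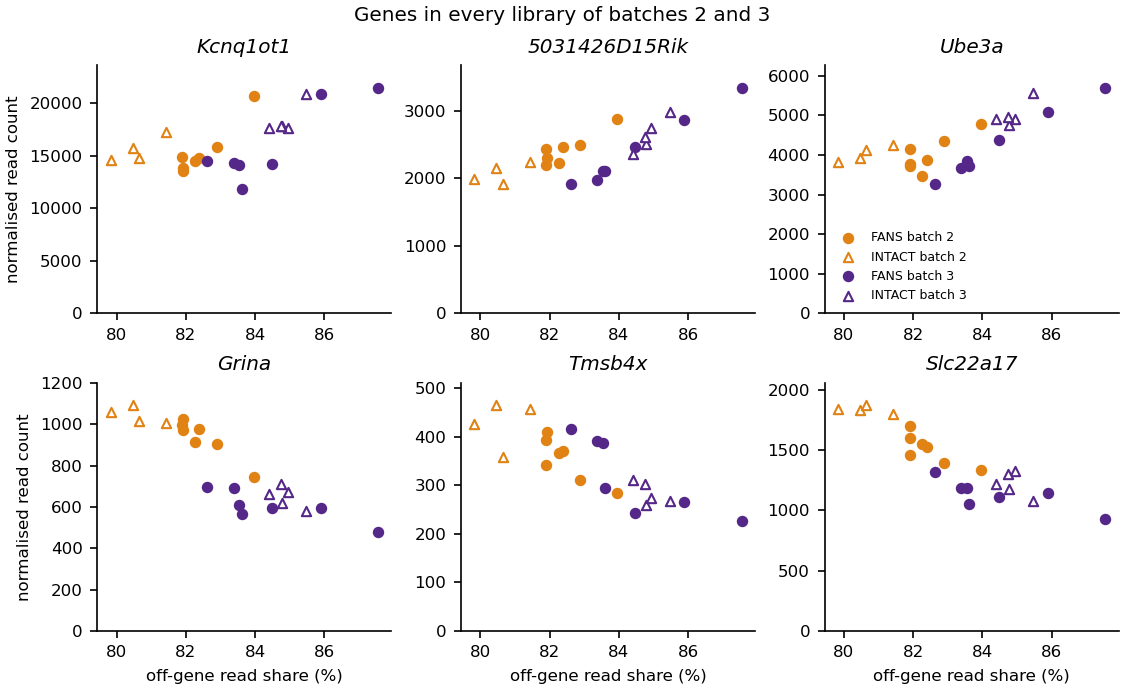
Normalised read count (y axis) of 3 genes with positive slopes (upper row) and 3 with negative slopes (lower row) against the off-gene read share in percent (x axis) in every library of batch 2 (orange) and batch 3 (purple). Filled circles are FANS libraries, which chose the genes, and open triangles are INTACT libraries, which did not. Values were scaled within each batch, so levels are compared within a colour, and the FANS library farthest to the right is the highest of its batch in the upper row and the lowest in the lower row.

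At the edge of the selection, the genes just inside with positive slopes were 4930565N06Rik (slopes 0.21 and 0.09) and Dcaf17 (0.11 and 0.07), and those just outside were Ralgapa1 (0.11 and 0.04) and Zfp955a (0.14 and 0.16). On the negative side, Clptm1 (-0.14 and -0.08) and Gm2a (-0.21 and -0.11) were just inside, and Gnb2 (-0.22 and -0.07) and Lrpap1 (-0.14 and -0.09) just outside. Slopes on both sides of the edge were of like size.

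Transcript structure, which the rule did not use, differed between the groups. The median exonic length was 5.86 kb for the genes with positive slopes, 1.7 kb for those with negative slopes and 3.13 kb for all genes measured in both batches (160, 108 and 14285 genes with curated exons). The median genomic span was 82.8 kb, 5.41 kb and 22.7 kb, and the median number of exons was 16, 6 and 9. Exonic GC content had a median of 45.3% (quartiles 42.4 and 48.3), 53.9% (48.7 and 57.3) and 49.9% (45.2 and 54.8). The median normalised read count in batch 2 was 540 for the positive genes, 181 for the negative genes and 135 for all genes, and longer exons give more reads at the same number of molecules. An accessible chromatin peak lay within 1000 bp of the start in all 3 FANS ATAC-seq libraries, which are technical replicates, for 71.2% of the positive genes, 99.1% of the negative genes and 89.1% of all. No test was made of these differences.

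Slopes over all genes also varied with exonic length and genomic span in both batches, and with GC content mainly in batch 2. In 854 genes with at least 8 kb of exonic sequence, the median slope was 0.0479 in batch 2 and 0.0285 in batch 3, and 56 of them (6.56%) were among the positive and 1 among the negative genes. In 755 genes with 0.5 to 1 kb, the median slope was -0.0376 and -0.0367, with 4 positive and 17 negative genes. The batches differed in how slopes moved with GC content. In batch 2 the median slope went from 0.0404 in 720 genes with under 40% GC to -0.0572 in 714 genes with at least 60% GC. In batch 3 the same classes had median slopes of -0.000334 and -0.0204, and the classes between them, from 40% to 60% GC, lay between -0.00609 and 0.0033 with no steady decline. In genes with a span under 5 kb the median slope was -0.04 and -0.0412, and in genes spanning 300 kb or more it was 0.0309 and 0.0306.

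**Figure D3:**
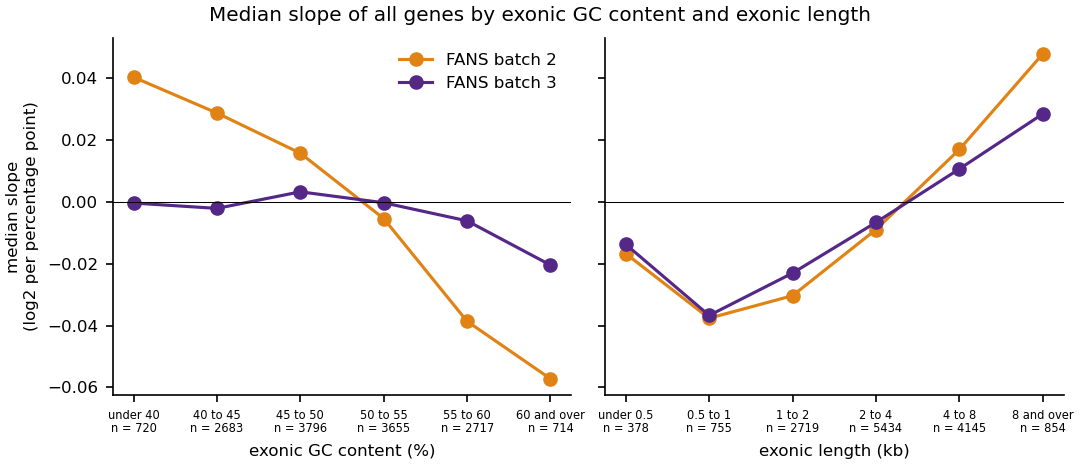
Median slope on the off-gene read share (y axis, log2 per percentage point) of all genes measured in both batches, grouped by exonic GC content in percent (left) and exonic length in kb (right), with the number of genes under each class. Lines join the classes for the FANS libraries of batch 2 (orange) and batch 3 (purple). Both batches run from negative medians at 0.5 to 1 kb to positive medians at 8 kb and over, while the medians decline with GC content in batch 2 and stay near 0 below 60% GC in batch 3.

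Gene lists of cytoplasmic function had slopes below 0 more often than above. Of 79 cytosolic ribosomal protein genes measured, 55 had negative and 3 positive slopes in both batches, and 2 were among the 109 genes (Rpl10a and Rps13). Rpl3 had slopes of -0.14 and -0.15, Rpl15 of -0.05 and -0.03, Rps15a of -0.01 and -0.05, and Rpl4 of 0.00165 and -0.06. Of 81 genes of oxidative phosphorylation, 52 had negative and 7 positive slopes in both batches, and 6 were members (Atp5b, Atp5d, Cox6c, Ndufa4, Ndufb10 and Uqcc2). Of 21 chaperones of the endoplasmic reticulum, 18 had negative and 0 positive slopes in both batches, with Hyou1 as a member, and Hspa5, the main luminal chaperone, had slopes of -0.05 and -0.16. Of 21 cytoskeleton genes, 13 were negative and 1 positive in both, with Actb and Tubb2b as members. Over all genes measured, 4311 of 14340 were negative and 4272 positive in both.

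The lists of long and nuclear transcripts differed among themselves. Of 43 long neuronal genes, 23 had positive and 6 negative slopes in both batches, with Dmd as a member (0.12 and 0.11). Of 13 nuclear long non-coding RNAs, 6 were positive and 4 negative in both, with Kcnq1ot1 as a member. Malat1, the most abundant of them, had slopes of -0.00253 and 0.10, and Meg3 had 0.05 and 0.10. Of 15 host RNAs of small nucleolar RNAs, 9 were negative and 1 positive in both, with Snhg12 as a member and Gas5 at -0.02 and -0.09. Of 57 C/D box small RNAs, 26 were negative and 8 positive, and of 40 H/ACA box small RNAs 17 were negative and 3 positive, with no member in either list. All 5 measured genes of a list of other small non-coding RNAs were negative in both batches, with median slopes of -0.185 and -0.155 and no member.

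Markers of cell types were followed along the share as well. Of 12 oligodendrocyte markers, 10 had negative and 0 positive slopes in both batches. Their summed value ranged from 7231 to 13910 normalised reads in the FANS libraries of batch 2 and from 1797 to 2428 in batch 3, and was lowest in the library with the highest share in each batch. Of 10 astrocyte markers, 5 were negative and 0 positive in both, with no member. The sum over all 11 astrocyte markers listed, at the highest share 6218 in batch 2 and 6399 in batch 3, was within the range of the other libraries (5079 to 6715 and 5604 to 7324), but most of it was Slc1a2, a glutamate transporter, with 5942 and 6166. Over the 10 astrocyte markers measured in both batches, the median slope was -0.031 in batch 2 and -0.111 in batch 3. Of 9 inhibitory neuron markers, 4 were negative and 1 positive, with no member, and the sum over all 11 markers listed was lowest at the highest share in batch 2 (539.3, against up to 754.1) but not in batch 3 (266.3, range 212.6 to 346.9). Of the 4 markers of oligodendrocyte precursors, 2 were measured in both batches, and the sum over all 4 at the highest share was 134.8 in batch 2 (range 101 to 143.4) and 130.2, the highest value, in batch 3 (from 68.86). Of 12 excitatory neuron markers, 5 were negative and 3 positive, with no member, and their sum ranged from 10970 to 11760 in batch 2 and from 9744 to 10720 in batch 3. Of the 9 microglia and 9 vascular markers, 3 and 2 were measured in both batches, and the sums over all 9 of each in these libraries were at most 372.3 and 69.55. The part of the oligodendrocyte markers in the slopes was not tested. Of 17 immediate early genes, 8 were negative and 2 positive in both, with no member, and Arc, whose activity drove the label, had slopes of -0.09 and -0.04.

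Libraries that had no part in the selection were then examined. In the 4 INTACT libraries of batch 2, whose share ranged from 79.8% to 81.4%, 127 of the 161 positive genes had a positive slope on the share (78.9%, against 50.9% of all genes) and 81 of the 109 negative genes a negative one (74.3%, against 49.1%). In the 5 INTACT libraries of batch 3, whose share ranged from 84.4% to 85.5%, the counts were 118 (73.3%, against 50.6%) and 72 (66.1%, against 49.4%). In batch 1, over 4 FANS and 4 INTACT libraries with technique in the fit, they were 136 (84.5%, against 49.4%) and 79 (72.5%, against 50.6%). No single gene among the 270 had an adjusted p under 0.05 in these limma fits, which called 2, 7 and 0 genes among all. An unadjusted p under 0.05 in the direction of selection was found for 11, 24 and 50 of the positive genes, against 1.48%, 3.22% and 4.81% of all genes, and for 9, 13 and 15 of the negative genes, against 3.25%, 3.67% and 4.91%. In the opposite direction, 2 positive genes in INTACT batch 3 and 1 negative gene in batch 1 had one. Kcnq1ot1 had slopes of 0.15, 0.23 and 0.21 in these fits, and Grina of -0.05, -0.20 and -0.09. Some named genes had the opposite sign in these fits. In INTACT batch 3, Wdr24, Sepw1, Snhg12 and Arf5 had slopes of 0.25, 0.24, 0.22 and 0.06, and in INTACT batch 2, Tmsb4x had 0.04, Wdr24 0.00132 and 8430431K14Rik -0.00996. In batch 1, Sepw1, Tmem59l, Pianp, Tmub2 and Id2 had slopes of 0.10, 0.04, 0.02, 0.02 and 0.00729, and Morc2b and Polq of -0.02 and -0.00569.

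Leaving out the INTACT library with the highest share lowered these counts. Without INTACT replicate 3 of batch 2, 62.7% and 63.3% of the positive and negative genes kept their sign, and without INTACT replicate 4 of batch 3, 58.4% and 58.7%.

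The position of each library along the selected genes was described by the mean log2(value + 1) of the positive genes minus that of the negative genes, with no test. In the FANS libraries of batch 3, from which genes were selected, this difference ran from 1.09 at a share of 82.6% to 2.38 at 87.5%. The 5 INTACT libraries of batch 3 had differences of 1.64 to 1.86 at shares of 84.4% to 85.5%, beside 1.72 at 84.5% in FANS replicate 4 and 1.96 at 85.9% in FANS replicate 6. In batch 2, the INTACT libraries had lower shares than the FANS libraries and differences of 0.874 to 1.19, against 1.06 to 2.00 in the FANS libraries. In batch 1, the FANS libraries had differences of 1.45 to 1.72 at shares of 81.9% to 84.3% and the INTACT libraries of 0.501 to 0.681 at 73.6% to 75.3%. The order of the techniques thus differed between batches: the median difference was higher in FANS in batches 1 and 2 and higher in INTACT in batch 3, where the median share was 83.6% in FANS and 84.8% in INTACT.

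**Figure D4:**
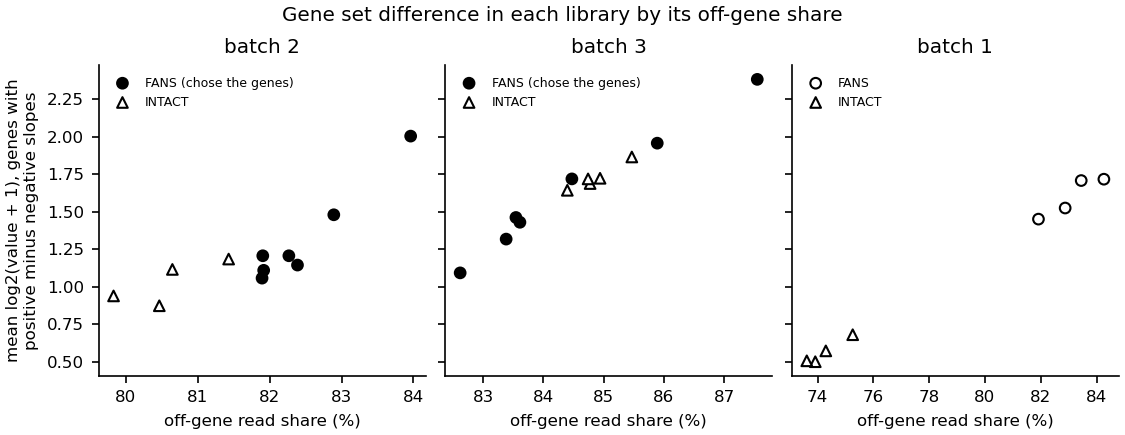
Mean log2(value + 1) of the 161 genes with positive slopes minus that of the 109 genes with negative slopes (y axis) against the off-gene read share in percent (x axis), with 1 point for each of the 31 libraries. Circles are FANS and triangles INTACT libraries, and filled points are the 14 libraries that chose the genes. In batch 3 the open INTACT triangles, from 1.64 to 1.86, lie among the filled circles at like shares, and in batch 1 the groups are apart on both axes.

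In batch 1, which had no part in the selection, FANS and INTACT could be compared gene by gene. Of the 161 genes with positive slopes, 123 were higher in FANS (limma, adjusted p under 0.05 over 14310 genes, 76.4%), against 18.4% of all genes, and 1 was lower (Prkdc). At an unadjusted limma p under 0.05, 2 of the 161 were lower. Of the 109 genes with negative slopes, 86 were lower in FANS (78.9%), against 19.3% of all genes, and 0 were higher, by limma and by edgeR and also at an unadjusted p under 0.05. The selected genes had higher read counts than all genes, with FANS medians in batch 2 of 540 (positive) and 181 (negative) against 135. The shares of calls were not matched for this. The median log2 difference, FANS minus INTACT, was 0.38 for the positive genes, -0.47 for the negative genes and -0.00462 for all genes. Technique and share cannot be told apart in batch 1, since every FANS library had a larger share than every INTACT library.

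In batch 1, the mean value of 5031426D15Rik was 2904 ± 334 normalised reads for FANS against 748.4 ± 68.1 for INTACT (SD, n = 4 each), a log2 difference of 1.95 ± 0.069 (SE, limma adjusted p = 2.33e-16). 9530091C08Rik differed by 2.20 (adjusted p = 8.41e-15), Lrtm1 by 1.78 (adjusted p = 2.25e-14), Kcnq1ot1 by 1.03 (adjusted p = 5.3e-10) and Ube3a by 0.97 (adjusted p = 5.58e-13). For each of these 5 genes, the FANS and INTACT libraries of batch 1 did not overlap, which was not counted over all genes. Calls at an adjusted p under 0.05 (limma) were common there, with 18.4% of all genes higher and 19.3% lower in FANS. The FANS values of Kcnq1ot1 were 18320 to 23360, against 8340 to 12160 for INTACT, and those of Ube3a 4490 to 5264, against 2371 to 2608. Nbea was higher in FANS by 0.39 (adjusted p = 3.85e-08), whereas Prkdc was lower by a log2 difference of -0.17 (adjusted p = 0.00364), against the sign of its slopes.

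The FANS values of Slc22a17 were 1341 to 1555, against 2215 to 2349 for INTACT (log2 difference -0.67, adjusted p = 3.67e-10), and those of Grina 742.7 to 968.5, against 1224 to 1264 (-0.47, adjusted p = 3.37e-06). Tmsb4x was lower in FANS by a log2 difference of -0.56 (adjusted p = 1.14e-05), Tmem59l of -0.52 (adjusted p = 5.69e-07) and Id2 of -0.55 (adjusted p = 4.82e-06). All 12 named genes with negative slopes passed the threshold, with Pianp the smallest difference at -0.24 (adjusted p = 0.016).

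The transcripts inside introns were also set beside their hosts in batch 1. For the 17 selected genes, the median log2 difference in batch 1 was 1.25, against 0.173 for their hosts over the 17 pairs. The difference was above that of the host for 17 of the 17. The inner genes were selected on their slopes, which was not required of the hosts. Syt1, a calcium sensor of transmitter release, was lower in FANS by -0.44 (adjusted p = 1.83e-08), while Gm5136 inside its intron differed by 1.57. Celf2 was higher in FANS by 0.53 and Rora by 0.22. Over all 300 genes inside introns, the median difference was 0.33. Of these, 103 were higher and 11 lower in FANS, where 18.4% of all genes were higher and 19.3% lower. Of the gene lists, 51 of 79 ribosomal protein genes, 38 of 81 oxidative phosphorylation genes, 17 of 21 chaperones of the endoplasmic reticulum and 9 of 12 oligodendrocyte markers were lower in FANS, and 1, 0, 0 and 0 were higher, again against 19.3% and 18.4% of all genes. Other lists did not follow the sign of their slopes, with median differences of 0.185 for H/ACA box and 0.105 for C/D box small RNAs. Of 40 H/ACA box small RNAs, 11 were higher and 3 lower. Of 57 C/D box small RNAs, 8 were higher and 2 lower, both below the shares of all genes. Of the astrocyte markers, 7 of 10 were lower in FANS and 0 higher. The summed value of the oligodendrocyte markers was 6485 to 8107 for FANS against 10430 to 11000 for INTACT, and that of all 11 astrocyte markers listed 6333 to 7088 against 7910 to 8118. Within each technique of batch 1, both sums were highest in the library with the highest share. In the FANS libraries of batches 2 and 3, the oligodendrocyte sum was lowest there. The part of these markers in the differences was not tested.

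**Figure D5:**
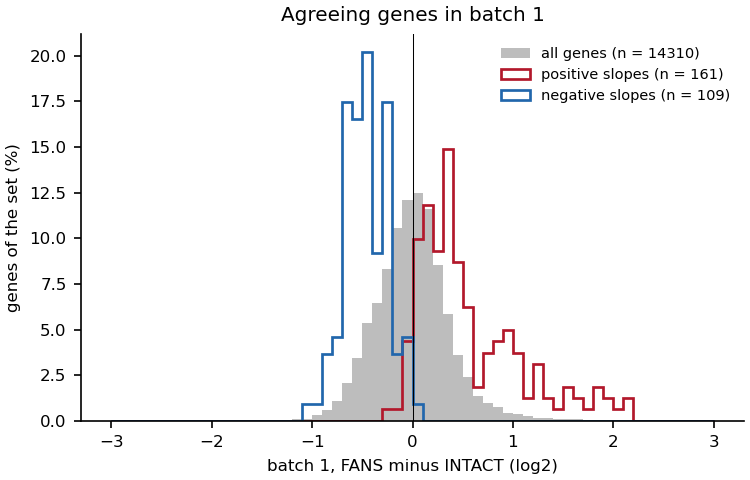
Distribution of the log2 difference between FANS and INTACT in batch 1 (x axis, FANS minus INTACT) as the percentage of genes in each class of 0.1 (y axis). The filled grey histogram holds all genes tested, the red outline the 161 genes with positive slopes (median 0.38) and the blue outline the 109 genes with negative slopes (median -0.47), whose values lie mostly on opposite sides of 0.

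When the genes were chosen again without the libraries of highest share, a choice made after seeing the data, fewer genes met the rule. Without FANS replicate 6 of batch 2, 13 of 22 positive genes were higher in FANS in batch 1 and 15 of 25 negative genes lower (59.1% and 60%). Without FANS replicate 7 of batch 3, 60 of 81 and 49 of 68 were (74.1% and 72.1%). With neither library, 5 of 10 and 7 of 18 were (50.0% and 38.9%), from few genes. Over all genes, 18.4% were higher and 19.3% lower in FANS in batch 1.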

How the data were processed

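Single-end reads had been mapped by the authors with STAR to mm10; they removed duplicates by molecular identifiers, counted unique alignments per gene with HTSeq and divided them by DESeq size factors. The deposited tables, 1 per batch, thus hold a normalised signal per gene, scaled separately in each batch. The step between low values gave whole reads (100% of values within 0.1 read), with which edgeR 4.0.16 and DESeq2 1.42.0 were run as alternatives. A standard error covers counting error and the spread between libraries. Whether reads were counted on exons and by strand is not given in the sources used here. The authors' ATAC-seq peak lists, called per library with MACS2, give each peak's fold enrichment (a ratio) and -log10 q-value, and served only to mark peaks near gene starts.

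The 5 summary rows were kept out of the tests. Slopes were fitted with limma 3.58.1 (R 4.3.3, lmFit and eBayes with trend) on log2(value + 1) over genes with a mean of at least 5 in the 7 FANS libraries of a batch, and batch 1 was fitted with technique. The script was tested on simulated counts. Replicates came from the labels, no pair of FANS libraries agreed within sampling noise, and 0 columns were left unmatched. Gene structure came from curated RefSeq transcripts of GRCm38.p6, with 23204 genes matched by symbol and 1067 by an older symbol. Of the genes selected, 12 per direction with a mean of at least 50 and the largest weaker absolute t were named, with up to 4 of the most abundant members of a list and the genes at the edge of the selection. Members and lists were chosen with earlier results of these data known.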

Additional observations from a re-analysis of the deposited data

Results flagged for a closer look

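In batch 2, FANS replicate 6 stood apart from the other 6 FANS libraries in the share of reads on more than 1 gene, which was lowest at 0.168%. The same library held the highest value of Kcnq1ot1 (20710 normalised reads), Thada (734.8), Morc2b (277.9) and Gm16523 (380.8) and the lowest of Grina (746.1), each by a gap to the next library of more than the 95% critical value of Dixon's test. These genes were selected on slopes to which that library contributed most. In batch 1, FANS replicate 2 had 17460 genes with a read, above the other 3 libraries of its group, which lay within 2 genes of each other. In all, 7 of 78 groups of values were so marked, and chance marks about 1 in 20. That rate does not apply to the 5 gene values, since the genes were selected on these libraries.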

How the results depend on the processing

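The counts of selected genes (161 positive and 109 negative) stayed within 1.5 times with a pseudocount of 5, a mean of at least 50, no filter, 75th percentile scaling, quantile normalization, edgeR, depth as a covariate and the log2 ratio of off-gene to gene reads. They were 96 and 50 with DESeq2, of which 94 and 50 were among the originals, and 92 and 54 with the rank of the share, of which 64 and 42 were; the cause was not tested. Leaving out 1 FANS library gave 22 to 194 and 25 to 254, calls of 0 to 3 genes in batch 2 and of 23 to 876 in batch 3. Without FANS replicate 7 of batch 3, 81 and 68 genes were selected; calls in batch 3 were 206, 329, 876 and 267 without its replicates 2, 3, 4 and 5. The 1 call in batch 2 was 0 with a mean of at least 50, no filter, quantile normalization, depth as a covariate and the rank of the share. Of the slopes of the 24 named genes, Tmem59l reversed in batch 2 without replicate 6 (0.0283), 20 others had an unadjusted p above 0.05 there, and 9 had one in batch 3 without replicate 7. In batch 1, 123 genes were higher and 86 lower in FANS, and 121 and 85 with the replicate block. After centring within technique, same-numbered libraries correlated by -0.0704 to -0.0103. These values show no pairing by number but cannot exclude a shared source of nuclei. The 1 positive gene lower in FANS became 3 with quantile normalization and 1 to 2 without single libraries. With members chosen without both libraries of highest share, 50.0% and 38.9% were called, from fewer genes, against 18.4% and 19.3% of all genes. Without the 2 farthest libraries, the correlation of the share with multiply aligned reads in batch 2 was 0.392 and with reads on genes in batch 3 0.0322, both of the opposite sign. The 7 libraries with a share range of 2.07 points in batch 2 limit the precision of single slopes.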
